A study of Oryza sativa with 32 samples.

Results

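The transcripts described here are 100 rice genes whose panicle levels were fitted with a stronger 12 h wave than 24 h wave, out of 37829 gene identifiers counted. They were chosen from CPM (counts per M of the library's total count, M for mega) in 28 libraries, without those taken at dusk. log2(CPM+1) was fitted on cosine and sine terms of 24 h and 12 h. Of the 14582 genes with a mean of at least 10 CPM, those with a 12 h amplitude (peak against mean) of at least 0.5 on the log2 scale and above their 24 h amplitude were kept. One gene, OS11G0157600, was left out by the rule, 191 remained, and the 100 with the highest share of variance in the wave (R²) were taken. The values that chose these genes are given as a description, without a test.

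The libraries came from panicles (the flowering heads) of untreated Oryza sativa. The plants were an indica rice, IR64, from a field plot at IRRI in the Philippines, and all were harvested at 50% flowering. They fall into 8 groups that the labels set apart by time of day alone: dawn, 3.5, 7 and 10.5 h after dawn, dusk, and 14, 17.5 and 21 h after dawn, with 4 libraries each. No hour is given for dusk. Whether libraries of the same time stem from separate plants is not stated, so spreads and p-values measure only these samples and may be technical.

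Most transcripts driven by the plant circadian clock or by light rise and fall 1 time in a day, and a 12 h term describes what such a wave leaves over. Of the transcripts described here, 10 were paired with a checked symbol and 90 were not. Lists of wall proteins, lignin enzymes and laccases were drawn up after values had been seen. The functions named below depend in part on those lists, and whether any function recurs among the unnamed transcripts was not tested. Among the named ones, several belong to the secondary cell wall. This wall is laid down inside the primary wall of vessels, fibres and anther wall cells once they stop growing. Its cellulose is made at the cell membrane by complexes of specialised cellulose synthases. Its lignin is made from phenylalanine by the phenylpropanoid pathway and is joined in the wall by oxidases such as laccases.

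Library totals ran from 10.8 to 43.9 M counts, with a median of 16.8 M. All 32 libraries held floral markers. The summed level of MADS3, MADS58, MADS13 and DL, here called the stamen and carpel markers, was 263 to 667 CPM. That of MADS2, MADS4 and MADS16, here called the lodicule markers, was 270.2 to 1262 CPM. Whether these genes are limited to the organs that name their lists was not checked. The green tissue genes LHCB2, LHCB3 and RCA summed to at least 601 CPM in every library, with a median of 2690 CPM. The endosperm genes RISBZ1 and GluA2 summed to 4.48 to 12.9 CPM. Markers of mature pollen (MADS62, MADS63 and MADS68) summed to anything from 1.39 to 83.6 CPM, and 6 markers of the tapetum (the nurse layer of the anther) to between 5.95 and 64.6 CPM. Libraries of the same time differed widely in them, from 1.39 to 28.7 CPM for mature pollen at dawn. In whole panicles, fewer cells of a type and less RNA per cell cannot be told apart.

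By the hour at which their fitted 12 h wave peaked, 81 of the 100 transcripts fell at 6 to 9 h (and again 12 h later), 11 at 0 to 3 h, 6 at 3 to 6 h and 2 at 9 to 12 h. The median peak of the largest class was at 6.65 h. In that class, the median transcript stood 0.38 above its own 7-time mean at 7 h and 0.77 above it at 17.5 h on the log2 scale. It stood 0.59 below at dawn (a median of -0.59) and 0.55 below at 14 h (-0.55). The class at 0 to 3 h ran the other way, with medians of 0.44 at dawn, 0.71 at 14 h, -0.67 at 7 h and -0.79 at 17.5 h. The class at 3 to 6 h was highest at 3.5 h (0.41) and 17.5 h (0.63) by median.

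**Figure D1:**
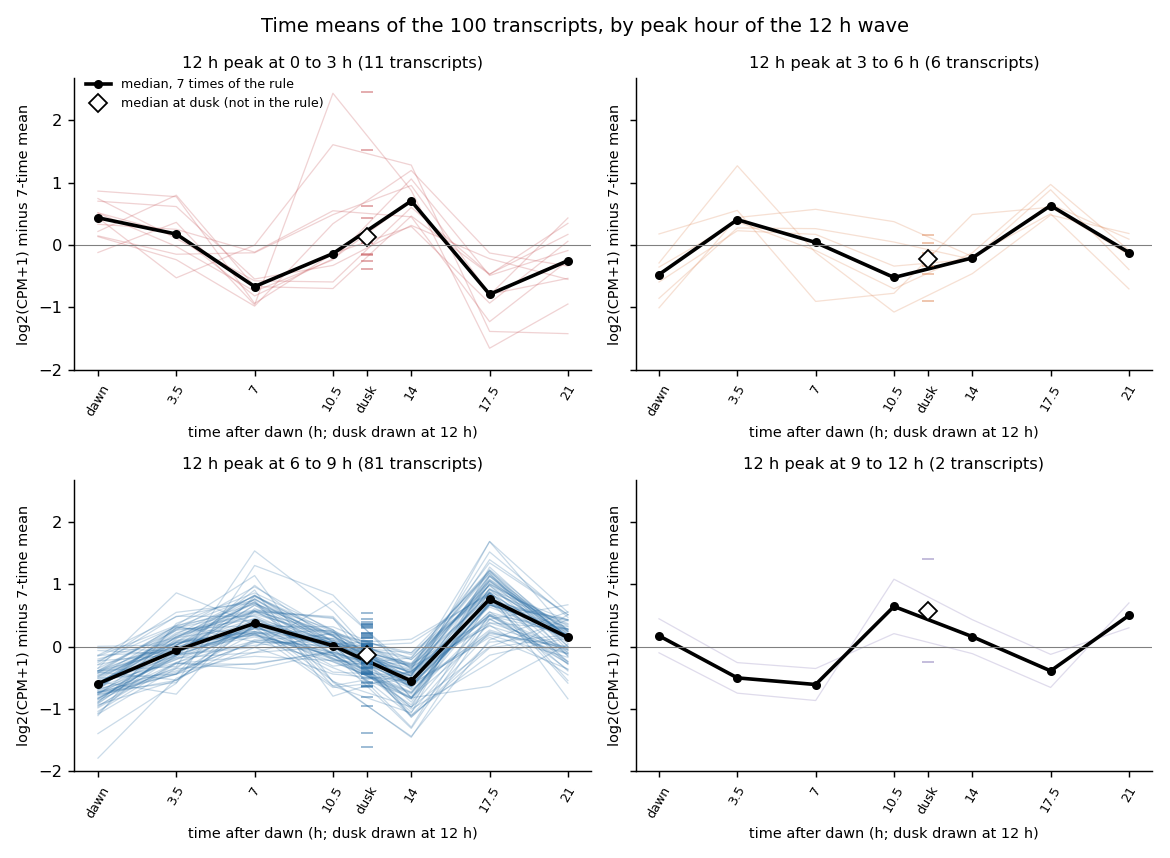
Time means of each of the 100 transcripts (thin lines) as log2(CPM+1) minus the mean over the 7 times of the rule, in 4 panels by peak hour of the 12 h wave; the black line is the class median, dashes and the open diamond are dusk, which the rule did not use. The class at 6 to 9 h rises to medians of 0.38 at 7 h and 0.77 at 17.5 h, while its dusk median is -0.14.

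The label of 2 peaks a day was checked on the time means, with a peak counted where it stood at least 0.5 (log2) above the higher of the troughs beside it. Over the 8 times, 88 of the 100 transcripts had at least 2 such peaks, where 8.68% of all genes with a mean of at least 10 CPM did. Exactly 2 were found for 87 (6.99% of all genes), 3 for 1 transcript, and 12 had a single peak. The pair of 7 h and 17.5 h was the most frequent, with 51 transcripts. The highest time mean was at 17.5 h in 56 transcripts (30.2% of all genes) and at 7 h in 28 (8.72%), and the lowest was at dawn in 44 (10.7%) and at 14 h in 32 (6.67%). Since 7 of the 8 times chose the transcripts, nothing is read from these shares.

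These counts depended on the peak height and on single libraries. With a peak height of at least 1 (log2), 21 transcripts still had 2 or more peaks. Without the library 14 h replicate 1 the count at a height of 0.5 was 62, and without dawn replicate 2 it was 67. The choice of the transcripts also moved with single libraries: 50 of the 100 were chosen again without 14 h replicate 1, 58 without dawn replicate 4 and 61 without dawn replicate 2. These losses were unlike. Without dawn replicate 4, 99 of the 100 still met the amplitude limits, but 627 genes did, so nearly all those lost were outranked on R². Without 14 h replicate 1 and without dawn replicate 2, 50 and 61 of the 100 still met the amplitude limits. Across the 28 fits that each left out 1 library, 20 transcripts were chosen in all 28, and the median transcript in 25.

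The waves were modest beside the spread of libraries. The 12 h amplitude had a median of 0.60 and reached from 0.50 to 1.30, while the 24 h amplitude of the same transcripts had a median of 0.37. R² ran from 0.27 to 0.85 with a median of 0.37, and 79 transcripts were below 0.5, so for most of them the larger part of the variance lay outside the wave. Their median SD within a time was 0.67 on the log2 scale, against 0.26 for all genes with a mean of at least 10 CPM. The last transcripts inside the R² limit were OS04G0408600, LAC7 and 4CL5 at 0.27 each, and the first outside it were OS06G0661766, LAC10 and OS01G0106400, also at 0.27 each.

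**Figure D2:**
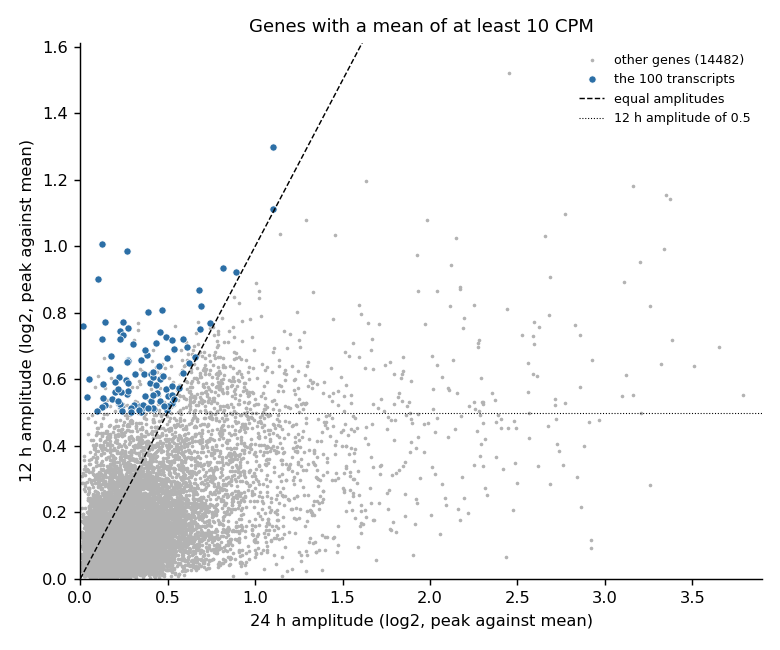
12 h amplitude against 24 h amplitude (both log2, peak against mean) of the 14582 genes with a mean of at least 10 CPM, with the 100 transcripts in blue, the line of equal amplitudes and the limit of 0.5. The transcripts lie above both lines by the rule, between 0.50 and 1.30 on the vertical axis.

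Cellulose synthases of the secondary wall form the first named group. All 3 of them in rice, CESA4 (OS01G0750300), CESA7 (OS10G0467800) and CESA9 (OS09G0422500), were among the 100, with BC1 (OS03G0416200), a COBRA-like protein needed for cellulose assembly in rice culms. CESA7 at 17.5 h was 351, 251, 273 and 205 CPM in replicates 1 to 4. At 14 h it was 14.2, 62.7, 65.2 and 141 CPM, and at 21 h 94.2, 116, 221 and 85.2 CPM. Every 17.5 h library was thus above every 14 h library, and 1 library at 21 h was within the 17.5 h range.

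The daytime peak of CESA7 was not visible in its CPM. It was 50.7, 9.39, 23.7 and 195 CPM at dawn, 78.5, 64.2, 34.1 and 118 at 3.5 h and 43.9, 63.2, 144 and 49.7 at 7 h. At 10.5 h it was 31.3, 116, 151 and 64.6 CPM, and at dusk 28.1, 124, 87.2 and 98.7 CPM. The 5 times from dawn to dusk overlapped throughout, and dawn replicate 4 and 10.5 h replicate 3 exceeded every library at 7 h. The difference of 17.5 h over 14 h was 2.28 ± 0.69 (SE, log2, n = 4 a time) and that of 7 h over dawn was 0.76 ± 0.97.

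CESA4 and CESA9 followed the same order. CESA4 was 429, 305, 339 and 316 CPM at 17.5 h and 31.1, 96.4, 106 and 241 at 14 h. CESA9 was 253, 195, 189 and 162 CPM at 17.5 h and 17.7, 47.6, 55.5 and 122 at 14 h. BC1 was 130.2, 104, 124 and 118 CPM at 17.5 h, and 17.3, 37.6, 50.8 and 102.5 at 14 h.

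All 4 of these wall genes were above every 14 h library in every 17.5 h library, by 1.98 ± 0.57 for CESA9, 1.87 ± 0.61 for CESA4 and 1.44 ± 0.52 for BC1 (log2, SE). For each of them the libraries of 7 h overlapped with those of dawn and of 14 h. The peaks found by the 0.5 limit were a single one at 17.5 h for CESA9, dusk and 17.5 h for CESA4 and BC1, and 10.5 h and 17.5 h for CESA7. At 21 h, replicate 3 was within the 17.5 h range for CESA4 (340 CPM) and CESA9 (163 CPM), as for CESA7. For BC1 the highest library at 21 h, at 98.5 CPM, was below that range. By their means these wall genes thus had 1 clear maximum, at 17.5 h, which for the 3 cellulose synthases was not free of overlap with 21 h. Any further maximum by day lay within the replicate spread and differed in time from gene to gene.

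The cellulose synthases of the primary wall, CESA1, CESA3 and CESA8, were not among the 100. Their 12 h amplitudes were 0.26, 0.06 and 0.23 (log2). CESA8 at 17.5 h was 318, 303, 289.8 and 309 CPM against 171, 204, 177 and 260.1 CPM at 14 h, a difference of 0.60 ± 0.14 without overlap. In a list of cellulose synthases and wall proteins that was drawn up after values had been seen, 4 of the 13 members at or above 10 CPM met the amplitude limits, where 1.32% of all genes did.

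Mature pollen markers moved in the opposite sense to this group. They summed to 3.33, 18.4, 5.32 and 2.36 CPM at 17.5 h, and to 61.7, 24.6, 53.3 and 6.04 at 14 h. In 14 h replicate 1, which had the lowest CESA4, CESA7, CESA9 and BC1 of that time, they were highest. With the mean of these markers as an added term in the wave fit, the 12 h amplitude of CESA7 was 0.60 in place of 0.82, that of CESA4 0.44 in place of 0.65 and that of CESA9 0.48 in place of 0.67. Since these markers themselves differed between 14 h and 17.5 h, the term can also take up part of the daily wave. The part of panicle composition in the result was not tested beyond this term.

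Enzymes of the phenylpropanoid pathway form the second group: 4CL3 (OS02G0177600) and 4CL5 (OS08G0448000), which activate cinnamic acids with coenzyme A, and CAD2 (OS02G0187800), which makes the alcohols that are joined into lignin. By the 0.5 limit the peaks of CAD2 were at 7 h and 17.5 h, but 7 h did not stand apart within the day. CAD2 was 87.0, 102, 164 and 114 CPM at 7 h, 172, 137, 152 and 139 at 17.5 h and 11.51, 36.2, 47.8 and 80.4 at 14 h. Its 14 h libraries were below all those of 7 h and 17.5 h, by 1.63 ± 0.60 and 2.03 ± 0.58 (log2, SE). Dawn was 73.6, 25.2, 49.1 and 176 CPM, 3.5 h was 140, 84.9, 72.3 and 162 CPM and 10.5 h was 33.2, 125, 170.2 and 84.0 CPM. All 3 of these times overlapped with 7 h, and their means of 81.0, 115 and 103.2 CPM compare with 117 CPM at 7 h. At dusk CAD2 was 29.2, 79.7, 65.5 and 70.2 CPM, within the range of 14 h and below every 7 h library.

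The ligases had peaks at the same times by the 0.5 limit, with wider overlap. 4CL3 was 196, 233, 322 and 247 CPM at 7 h, 413, 297, 341 and 341 at 17.5 h and 54.6, 129.9, 176 and 289.6 at 14 h. 4CL5 was 10.6, 20.8, 35.1 and 22.7 at 7 h, 31.6, 25.3, 21.0 and 32.9 at 17.5 h and 1.19, 5.88, 9.48 and 20.1 at 14 h. For both, 17.5 h was above 14 h without overlap (1.32 ± 0.51 and 1.90 ± 0.70, log2), while 7 h overlapped with 14 h.

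These enzymes, too, were lowest of the 14 h libraries in replicate 1, where the mature pollen markers summed to 61.7 CPM. With the mean of those markers as a term, the 12 h amplitude was 0.57 in place of 0.75 for CAD2, 0.37 in place of 0.52 for 4CL3 and 0.65 in place of 0.90 for 4CL5 (log2). CAD2 and 4CL5 then still met the amplitude limits, and 4CL3 did not. Here too the term can take up part of the daily wave.

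Chalcone synthase, CHS1 (OS11G0530600), which draws the same precursors into flavonoids, was also chosen. It was 303, 175, 219.7 and 269 CPM at 17.5 h and 43.2, 43.1, 90.5 and 192 at 14 h, which overlap. In a list of phenylpropanoid and lignin enzymes drawn up after values had been seen, 7 genes reached 10 CPM, all 7 had a 12 h amplitude above their 24 h amplitude (17.2% of all genes did) and 4 met the amplitude limits. The other 3 of the 7 were 4CL4, HCT1 and HCT2, with 12 h amplitudes of 0.16, 0.28 and 0.27 (log2). Of 3 laccases at or above 10 CPM, LAC7 and LAC10 met the limits, and of 2 S-adenosylmethionine synthetases, SAM1 and SAM2, neither did (12 h amplitudes of 0.34 and 0.41). A wider list of cell wall and phenylpropanoid genes, written with earlier results of these data known, had 5 of 9 within the limits. These were CESA4, CESA7, CESA9, CHS1 and CAD2, which the lists of wall proteins and of lignin enzymes had already counted, so no further gene is added.

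Other pathway lists were mixed in this, and of those named next none had a gene within the limits. None of the 7 core clock genes, 12 chlorophyll genes, 12 aquaporins or 7 photoperiod and flowering genes at or above 10 CPM had a 12 h amplitude above its 24 h amplitude, where 17.2% of all genes did. The 7 core clock genes had a median 24 h amplitude of 2.73 (log2) and a median 12 h amplitude of 0.47. The larger amplitude was at 12 h in 7 of 15 floral organ identity genes, 5 of 14 jasmonate genes, 2 of 5 defence genes and 2 of 7 starch genes. Those shares were above that of all genes. Below it were 2 of 16 sugar genes, 1 of 8 redox genes and 1 of 6 heat shock genes. So were 3 of 18 auxin, cytokinin, brassinosteroid and strigolactone genes.

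**Figure D3:**
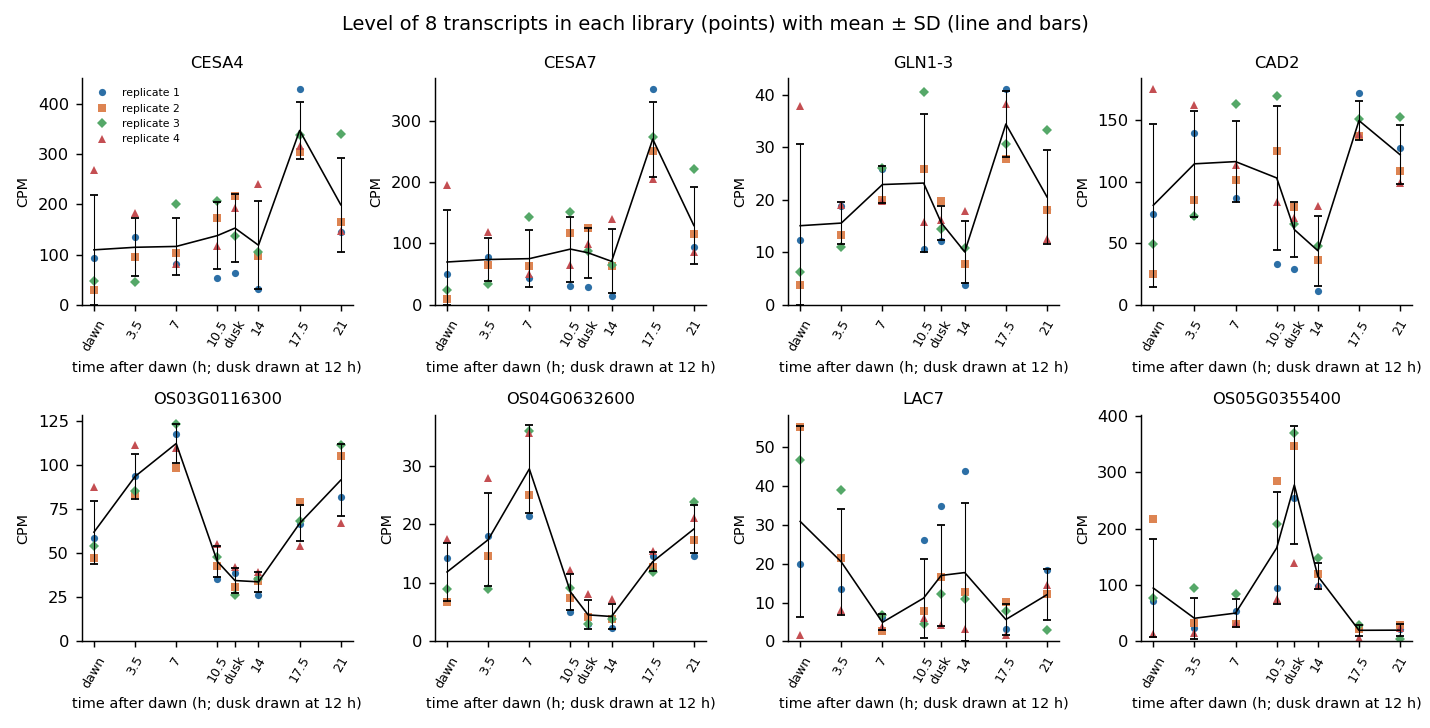
CPM of 8 of the 100 transcripts in every library (points, by replicate number) with the mean and SD of the 4 libraries a time (line and bars, lower bars ending at 0); dusk is drawn at 12 h. CESA4 and CESA7 have their highest mean at 17.5 h, with replicate 3 of 21 h within the 17.5 h range. GLN1-3 and CAD2 are lower at 14 h than at 7 h and 17.5 h, and LAC7 and OS05G0355400 are low at 17.5 h.

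GLN1-3 (OS03G0712800), a cytosolic glutamine synthetase that fixes ammonium into glutamine, was low at 14 h as CAD2 was. It was 25.8, 19.9, 26.1 and 19.8 CPM at 7 h, 41.0, 27.8, 30.6 and 38.1 at 17.5 h and 3.80, 7.83, 10.8 and 17.9 at 14 h. All libraries of 7 h and 17.5 h were above those of 14 h, by 1.27 ± 0.43 and 1.83 ± 0.43 (log2, SE). Dawn, with 12.3, 3.79, 6.28 and 37.8 CPM, overlapped with both. At 10.5 h it was 10.7, 25.7, 40.5 and 15.8 CPM, a mean of 23.2 CPM against 22.9 CPM at 7 h, so that 7 h was not a separate maximum in CPM. GLN1-3 was chosen in all 28 fits that left out 1 library, while CESA9 was chosen in 16, 4CL5 and CHS1 in 15 each and 4CL3 in 14.

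The clearest waves belonged to 3 transcripts whose identifiers are paired with no name in the sources used here: OS03G0116300 (R² 0.85), OS04G0632600 (0.79) and OS02G0590200 (0.78). OS03G0116300 was 117.5, 98.0, 123 and 109 CPM at 7 h. It was 35.1, 42.6, 47.8 and 55.4 CPM at 10.5 h, 26.2, 34.3, 35.1 and 39.3 at 14 h and 81.8, 105, 111 and 67.2 at 21 h. Its 7 h libraries were above those of dawn (58.7, 47.2, 53.9 and 87.5 CPM) without overlap, by 0.88 ± 0.20 (log2, SE), and above those of 14 h by 1.71 ± 0.14.

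OS04G0632600 was 21.3, 24.9, 35.9 and 35.6 CPM at 7 h, 2.28, 3.78, 3.78 and 7.16 at 14 h and 14.5, 17.3, 23.8 and 21.1 at 21 h. OS02G0590200 was 36.8, 25.4, 34.8 and 30.0 CPM at 7 h, 8.04, 6.29, 8.41 and 12.2 at 14 h and 28.0, 21.0, 36.9 and 21.6 at 21 h. In all 3, the second peak of the means fell at 21 h and not at 17.5 h, and 7 h exceeded both dawn and 14 h without overlap. The 21 h libraries of OS02G0590200 were above all of 17.5 h and of dawn. In OS03G0116300 (66.4, 78.7, 68.2 and 53.9 CPM at 17.5 h) and OS04G0632600 they overlapped with both times. The place of the second peak and the dip at dawn thus lay within the replicate spread in OS03G0116300 and OS04G0632600. OS04G0632600 and OS02G0590200 were chosen in all 28 fits that left out 1 library, OS03G0116300 in 24.

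Their 12 h amplitude was not far above the 24 h amplitude (0.58 and 0.56 for OS03G0116300, 0.87 and 0.68 for OS04G0632600, 0.60 and 0.45 for OS02G0590200, log2). In OS03G0116300 and OS04G0632600 the libraries of 10.5 h, dusk and 14 h were low together, and the means from 17.5 h to 7 h were higher with a dip at dawn. At dawn OS04G0632600 was 14.2, 6.81, 8.88 and 17.5 CPM, against 14.5, 12.7, 11.9 and 15.4 CPM at 17.5 h.

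The transcripts with the largest 12 h amplitude in the class at 6 to 9 h were OS05G0427400 and OS07G0523400, with 1.01 and 0.99 (log2). OS05G0427400 was 40.6, 36.3, 77.0 and 50.9 CPM at 7 h, 75.1, 66.9, 52.99 and 61.2 at 17.5 h, 3.15, 14.1, 19.6 and 39.2 at 14 h and 16.8, 2.41, 9.16 and 63.0 at dawn. OS07G0523400 was 10.3, 8.42, 19.7 and 20.9 CPM at 7 h, 24.6, 22.7, 18.1 and 18.4 at 17.5 h and 1.63, 3.50, 2.69 and 6.79 at 14 h. Over 14 h, the level at 7 h was 1.79 ± 0.45 higher for OS07G0523400, without overlap, and 1.73 ± 0.73 higher for OS05G0427400, where the libraries overlapped (log2, SE).

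In the class at 0 to 3 h the order of the times was turned around. LAC7 (OS01G0850700), a laccase by its symbol, was 20.0, 55.2, 46.8 and 1.65 CPM at dawn, 6.39, 2.71, 6.86 and 3.67 at 7 h, 44.0, 12.7, 11.0 and 3.16 at 14 h and 3.09, 10.0, 7.85 and 1.55 at 17.5 h. The lowest library at dawn, replicate 4, was below all of 7 h, and no pair of these times was free of overlap. The difference of 7 h over dawn was -1.80 ± 1.05 and that of 17.5 h over 14 h was -1.23 ± 0.86 (log2, SE), and the libraries overlapped in both. In these libraries LAC7 went with the mature pollen markers, at 1.39 CPM in dawn replicate 4 and 61.7 CPM in 14 h replicate 1, and with them as a term its 12 h amplitude was 0.54 in place of 0.81.

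OS05G0355400 had the highest R² of that class (0.59), and was chosen in 17 of the 28 fits that left out 1 library. It was 255, 347, 369 and 139 CPM at dusk and 99.0, 119, 147 and 98.1 at 14 h. It fell to 23.5, 21.2, 28.4 and 5.70 CPM at 17.5 h, below all 14 h libraries by 2.67 ± 0.50 (log2, SE). At dawn it was 71.5, 218, 76.6 and 12.7 CPM. Its 12 h amplitude of 1.112 was close to its 24 h amplitude of 1.104 (log2), and by its means it had a main peak at dusk and a lesser one at dawn that overlaps with 7 h.

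OS03G0782300, with the largest 12 h amplitude of all 100 (1.30, log2), rested on few libraries. At 10.5 h it was 896, 1.24, 1.65 and 78.5 CPM, at 14 h 117, 3.36, 4.15 and 1.12 CPM, and at dusk 4.29, 17.8, 0.91 and 0.28 CPM. Replicate 1 at 10.5 h and at 14 h held the high values, and in the other libraries the level was 22.8 CPM at 3.5 h replicate 4 or lower, apart from 10.5 h replicate 4. It is described by these values and not as a daily course.

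The class at 3 to 6 h was led by OS03G0289800, which was 76.3, 34.8, 58.4 and 16.8 CPM at 3.5 h, 8.25, 11.9, 16.7 and 10.4 at 14 h and 27.4, 27.3, 26.6 and 13.8 at 17.5 h. It was above all 14 h libraries at 3.5 h (1.73 ± 0.51, log2). OS06G0567900 was 42.2, 52.2, 89.2 and 35.8 CPM at 3.5 h and 36.5, 14.3, 17.3 and 11.7 at 7 h, and stood at 56.0, 47.6, 58.9 and 37.3 at 14 h. OS06G0567900 was thus already high at 14 h (1.40 ± 0.37 above 7 h, without overlap), whereas OS03G0289800 overlapped between 14 h and 17.5 h.

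The 2 transcripts of the class at 9 to 12 h differed from each other. OS07G0684100 was 46.8, 53.9, 57.9 and 34.0 CPM at 10.5 h, 81.8, 49.8, 69.7 and 43.7 at dusk and 12.6, 11.7, 12.7 and 9.29 at 7 h, with a single peak at dusk by its means. All its libraries at dusk were above those of 14 h (36.6, 32.6, 30.5 and 21.5 CPM). OS07G0673200 was 27.7, 17.0, 9.54 and 24.3 CPM at 10.5 h, 28.5, 32.3, 12.9 and 38.5 at 21 h and 8.04, 15.8, 14.7 and 4.28 at 17.5 h, with overlap throughout these times.

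Over all 100 transcripts, the times could be set apart by library in the following counts, which use libraries of the rule and are given as a description. All 4 libraries of 17.5 h were above all 4 of 14 h in 52 transcripts, where this held for 8.67% of all genes with a mean of at least 10 CPM. For 7 h above 14 h the count was 32 (10.1% of all genes), for 7 h above dawn 20 (10.3%) and for 7 h above 10.5 h 10 (6.45%). For 17.5 h above 21 h it was 18 (12.5%). In the other direction, 14 h was above 17.5 h in 5 (4.27%), 14 h above 7 h in 8 (14.3%) and dawn above 7 h in 2 (13.5%), all outside the class at 6 to 9 h. Nothing is read from these counts, and the other pairs of times were not counted.

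Some members lay close together in the genome. By identifier, which follows the order along a chromosome, 5 pairs lay next to or within 2 measured genes of each other: OS02G0590200 with OS02G0590400, OS05G0163250 with OS05G0163300, OS07G0621800 with OS07G0622200, OS11G0455500 with OS11G0455800, and OS12G0623900 with OS12G0624000. Both members of each pair were in the class at 6 to 9 h. Near-identical neighbours can share reads, so values of such pairs are uncertain. Each chromosome held between 2 and 14 of the 100, with 14 on chromosome 4, where 1252 of the 14582 genes at or above 10 CPM lie, and 2 on chromosome 12, with 741 of them.

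Libraries of the same time differed in a shared way across the class at 6 to 9 h. After each library was centred on the mean of its time, a transcript of the class at 6 to 9 h had a median correlation of 0.91 over the 32 libraries with the mean of the other 80. For all genes with a mean of at least 10 CPM the median correlation with that class mean was 0.44. CESA4, CESA7 and CAD2 had 0.98 each, GLN1-3 had 0.92, and LAC7 had -0.83. The 11 transcripts of the class at 0 to 3 h had a median of -0.64 with the same mean, the 6 at 3 to 6 h 0.69 and the 2 at 9 to 12 h -0.56. The 3 transcripts of highest R² had less, with 0.65 for OS03G0116300, 0.76 for OS04G0632600 and 0.48 for OS02G0590200. These correlations share library composition and the values that chose the genes, and are a description.

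Libraries of the same time differed widely in the class at 6 to 9 h. Its mean log2(CPM+1) was 4.87, 3.66, 4.21 and 5.81 at dawn, 5.603, 5.48, 6.09 and 5.59 at 7 h, 3.54, 4.72, 4.88 and 5.49 at 14 h and 6.23, 5.97, 6.00 and 5.77 at 17.5 h. Dawn replicate 4 was above 3 of the 7 h libraries, and 14 h replicate 4 above 1 of them. The libraries of 17.5 h were above all of 14 h and above all of dawn, apart from dawn replicate 4, which exceeded 17.5 h replicate 4.

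Marker lists named for the anther and for other floral organs moved with the classes within times. Their genes were not checked to be limited to a single organ, so opposite signs between lists do not set organs apart. Over the 32 libraries centred on their time, the class mean at 6 to 9 h had a correlation of -0.80 with the mean of the mature pollen markers (Spearman -0.82, and -0.79 without the 2 libraries farthest out) and of -0.71 with that of the tapetum markers. The class at 0 to 3 h had 0.88 and 0.76, that at 3 to 6 h -0.57 and -0.50 and that at 9 to 12 h 0.70 and 0.51. With the lodicule markers the class at 6 to 9 h had a correlation of -0.68 and the class at 0 to 3 h 0.81. With the stamen and carpel markers these were 0.83 and -0.78, with the green tissue markers -0.51 and 0.41 (-0.28 and 0.18 without the 2 libraries farthest out), and with the endosperm markers 0.35 and -0.38. In dawn replicate 4, where mature pollen markers summed to 1.39 CPM, the class at 6 to 9 h was highest of its time, and in dawn replicate 2, at 27.0 CPM, it was lowest. The same 2 libraries had lodicule sums of 270.2 and 447 CPM and stamen and carpel sums of 667 and 264 CPM.

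All 3 mature pollen markers were low, with medians of 13.7 CPM for MADS62, 1.39 for MADS63 and 6.44 for MADS68, and MADS63 was at 0 in 1 library. Of the tapetum markers PTC1 was at 0 in 26 libraries, EAT1 in 4 and C6 in 3, while TDR, UDT1 and CYP703A3 were at 0 in none. With the mature pollen mean as a term of the wave fit, a choice made after seeing the data, 32 of the 100 still met the amplitude limits, and with the tapetum mean 34. The median 12 h amplitude was then 0.47 and 0.49 in place of 0.60, and the median 24 h amplitude 0.46 and 0.52 in place of 0.37. With the lodicule mean 52 met the limits, with the stamen and carpel mean 39, with the green tissue mean 7 and with the endosperm mean 83. With the green tissue mean the median 12 h amplitude was 0.63 in place of 0.60, and the median 24 h amplitude 1.37 in place of 0.37. The green tissue markers had a daily course of their own (mean log2 of 11.1 at 3.5 h and 6.66 at 17.5 h). This term therefore overlaps with the 24 h wave, and the count of 7 does not measure a loss of 12 h amplitude. The mature pollen mean also differed between times (mean log2 of 3.08 at 14 h and 1.37 at 17.5 h), as did the tapetum mean (1.37 and 0.96). Those terms can therefore take up part of the waves too, and the counts of 32 and 34 do not measure a share due to these tissues. The part of panicle composition and anther stage in these waves was not tested further.

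**Figure D4:**
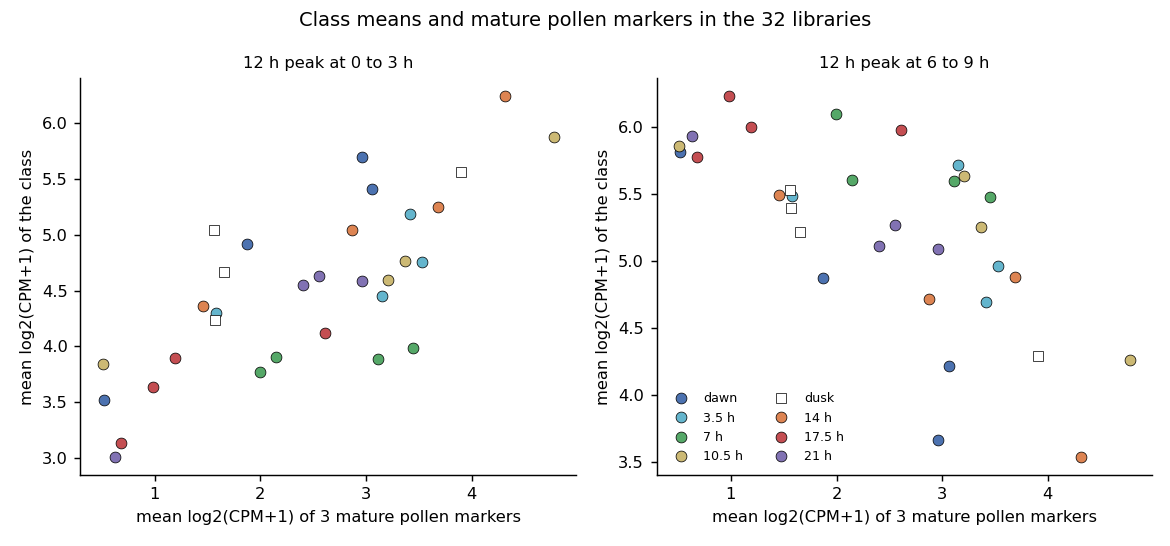
Mean log2(CPM+1) of the class at 0 to 3 h (left) and of the class at 6 to 9 h (right) against the mean log2(CPM+1) of 3 mature pollen markers, 1 point a library, coloured by time with dusk as squares. Within times the left class rises and the right class falls with the markers (correlations of 0.88 and -0.80).

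The dusk libraries took no part in choosing the transcripts and were set against the fitted wave at 12 h after dawn. For the class at 6 to 9 h, the wave gave a median of -0.46 from the 7-time mean and the dusk libraries a median of -0.14. Over all 100 transcripts the median distance between dusk and wave was 0.37 (log2), where it was 0.13 over all genes with a mean of at least 10 CPM. The observed mean was above the wave by a median of 0.34. It was within 0.5 of the wave for 72 of the 100 (90.8% of all genes) and on the side of the 7-time mean that the wave gives for 62 (72.9% of all genes). The dusk libraries also spread more in the 100, with a median SD of 0.57 against 0.24 over all these genes. The distances and the fixed limit of 0.5 therefore do not compare like with like.

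Among the named genes, dusk lay above the wave by 0.63 for CESA4, 0.55 for CESA7, 0.60 for BC1 and 0.30 for CAD2 (log2). It lay at 0.05 from the wave for OS03G0116300 and at -0.10 for OS04G0632600. By its mean, dusk was thus higher than fitted in these wall genes and close to the fit in the other 2. The SD within a time was 0.88 for CESA4, 0.76 for CAD2 and 0.75 for BC1 (log2), and larger for CESA7. In each of these wall genes the gap was smaller than that SD. For OS03G0116300 and OS04G0632600 the SD was 0.27 and 0.48, so the 2 sets also differed in spread. The hour of dusk was assumed, and whether these gaps exceed the replicate spread was not tested. Without dusk replicate 1 the median distance over the 100 transcripts was 0.60 in place of 0.37, and without dusk replicate 2 it was 0.26. Across the 100 transcripts the observed and fitted departures had a correlation of 0.68 (over genes, which are not independent replicates).

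**Figure D5:**
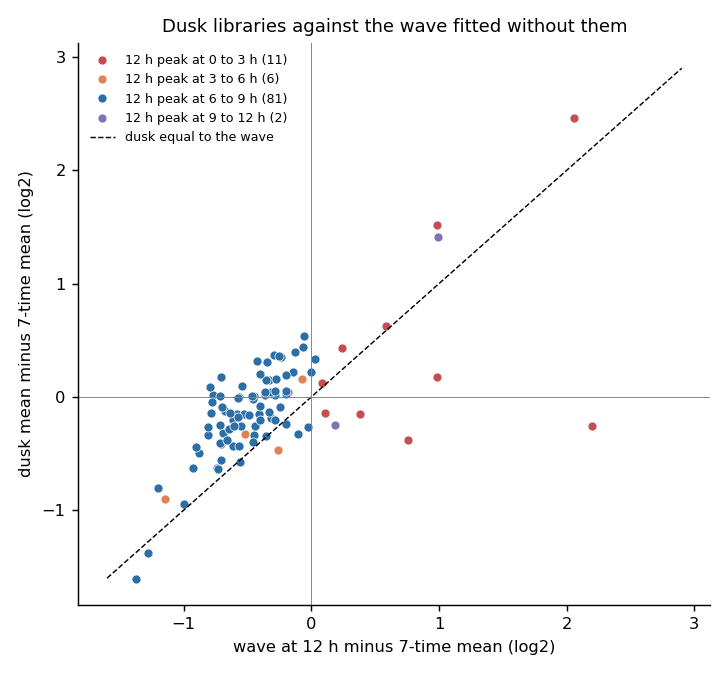
Dusk mean minus 7-time mean (log2) against the value that the wave fitted without the dusk libraries gives at 12 h, 1 point a transcript, coloured by class, with the line of equality. Most transcripts of the class at 6 to 9 h lie above the line, with a median observed minus fitted difference of 0.37.

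Dusk was also tested against the mean of its neighbours at 10.5 h and 14 h. The libraries of 10.5 h and 14 h took part in choosing the transcripts, so only the dusk side is independent of the choice. Calls among the 100 are therefore given only beside those among all genes. With edgeR's quasi-likelihood test and Benjamini-Hochberg adjustment over 25766 genes, 0 genes were called in either direction (0% of those tested), and so 0 of the 100. At an unadjusted p under 0.05 there were 1749 genes, 3 of them among the 100, and DESeq2 called 19 genes with 0 of the 100. The 3 transcripts were OS03G0782300 (-4.11 ± 1.49, log2 and SE, adjusted p = 0.676), OS06G0710700 (-0.75 ± 0.31, adjusted p = 0.702) and OS07G0684100 (0.62 ± 0.28, adjusted p = 0.716). Of the 100, 52 were higher and 48 lower at dusk, with a median difference of 0.02 beside 0.01 for all genes tested. In simulated counts for this comparison the test called 60 of 100 genes changed 2-fold and 81 of 100 changed 4-fold. Those genes were drawn at random from all genes tested. The 100 transcripts spread more, with a median SD within a time of 0.67 against 0.26 for all genes with a mean of at least 10 CPM. The simulated shares therefore do not hold for them, and 0 calls among them do not show that dusk was equal to its neighbours.

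All 4 dusk libraries were below all 4 of 17.5 h in 43 transcripts (13.3% of all genes) and above all 4 of 14 h in 2 (3.44%). The libraries of 17.5 h and 14 h took part in choosing the transcripts, so nothing is read from these counts. CESA4 at dusk was 64.1, 217, 137 and 192 CPM, below the 17.5 h libraries and overlapping with those of 14 h.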

How the data were processed

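RNA was sequenced from 32 rice panicle libraries, 4 at each of 8 times. Per the labels' protocols, poly(A) RNA was made into strand-marking libraries. The tools named in the submitters' processing notes are HTSeq 0.6.0 and TopHat2 (version 2), with the genome build IRGSP-1.0. Annotation release and strand setting: not given in the sources used here. That build is of a japonica rice and the samples are indica, so reads of diverged genes can be missed.

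The authors deposited whole-number counts per gene and CPM. The deposited CPM equalled the count over the library total in all 32 libraries to 6 decimals, so it holds no further scaling and no gene length, and levels are not compared between genes. Intervals from depth cover counting error only, and at these totals the spread between libraries was larger for the genes named.

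Waves were fitted by least squares in Python 3.11.15 (numpy 2.4.6, pandas 2.3.3) on log2(CPM+1), with a pseudocount of 1, which understates changes of low genes. Differences between times are differences of mean log2(CPM+1) with the SE over libraries. Peaks are cyclic maxima of the time means with a prominence of at least 0.5. Dusk was set at 12 h. Counts were tested with edgeR 4.0.16 in R 4.3.3 (glmQLFit, glmQLFTest, TMM, filterByExpr, 25766 genes left, Benjamini-Hochberg at 0.05) over all 32 libraries, with DESeq2 1.42.0 as an alternative. The scripts were tested on simulated data.

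The members, gene lists and tests were chosen with earlier results of these data known, and lists of wall proteins, lignin enzymes, laccases and methyl donor enzymes after values were seen. Symbols were written from general knowledge. Of 435 pairs, 277 stood in the reference table (assembly ASM3414082v1) on the identifier's chromosome and in its order, 15 stood elsewhere and were not used, and 143 were not in the table. The pairing of MADS62, MADS63, MADS68, LHCB2, LHCB3 and RISBZ1, where used, was not checked by the table. Of the 100 members, 10 had a checked symbol here. Named are all 10, the 2 largest 12 h amplitudes a class, the 3 highest R², the 3 genes on each side of the R² limit and, chosen after values were seen, wall genes outside the 100, 1 further gene at an unadjusted p under 0.05 and neighbouring members. One member is not reported by name here. Promoter motifs were planned and not analysed here. Alternatives were other scalings, pseudocounts, limits, peak heights and dusk hours, leaving out each library, and a replicate block.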

Additional observations from a re-analysis of the deposited data

Results flagged for a closer look

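Among the 25 named genes, 200 groups of 4 libraries were looked at for a library whose gap to the nearest other exceeded Dixon's 95% critical value over the group's range, which chance gives for about 1 in 20 groups, and 12 stood out. At 21 h, replicate 3 was the highest for CESA4 (340 CPM, the nearest 165), CESA9 (163, nearest 85.2), CHS1 (241, nearest 109) and OS04G0408600 (85.2, nearest 37.5). CESA9 also had a high 7 h replicate 3 (93.7 CPM, nearest 47.8). At 10.5 h, replicate 1 was high for LAC7 (26.2 CPM, nearest 7.82) and OS03G0782300 (896, nearest 78.5), and OS03G0782300 had a high 14 h replicate 1 (117, nearest 4.15). Dusk replicate 1 was high for OS07G0673200 (28.7 CPM, nearest 11.6) and OS06G0661766 (96.5, nearest 41.1). Dawn replicate 4 was high for LAC10 (123 CPM, nearest 23.8), and 17.5 h replicate 4 was low for OS03G0289800 (13.8, nearest 26.6).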

How the results depend on the processing

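Of the 100 transcripts, 75 were chosen again with TMM factors, 73 with DESeq2 size factors, 91 with a pseudocount of 0.5 and 69 with a minimum of 20 CPM. The choice moved by more than 1.5 times with a pseudocount of 5 (57), without a minimum level (54), with dusk added at 12 h (61) and, all added after seeing the data, with the marker mean of mature pollen (32), tapetum (34), lodicule (52), stamen and carpel (39) or green tissue (7) as a term, and 75 were chosen again with that of endosperm. With the green tissue term the median 24 h amplitude was 1.37 in place of 0.37, and the median 12 h amplitude 0.63 in place of 0.60. Without a minimum level all 100 still met the amplitude limits, among 332 genes, so those not chosen again were outranked on R². Leaving out 1 library gave 50 to 93. Transcripts with 2 or more peaks numbered 99 at a height of 0.25 and 21 at a height of 1, 89 with TMM factors, 70 with a pseudocount of 5, 81 without dusk and 62 to 94 when 1 library was left out. The median distance of dusk from the wave was 0.29 to 0.39 over settings and 0.26 to 0.60 without 1 dusk library. The dusk comparison called 0 genes with edgeR under each other setting, 19 with DESeq2, and 0 to 3 without 1 library (3 without dusk replicate 1, 2 without dusk replicate 2), with 0 of the 100 in each. The cause of these moves was not tested.

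With a replicate block in the wave fit 88 were chosen again, and with it the dusk comparison called 0 genes. The numbers pair no samples by the labels: libraries of the same number had correlations from -0.90 to 0.87 with a median of 0.04, and 12 of 32 correlated best with their own number.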
